A study of Mus musculus with 12 samples.

Results

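The genes described here are 36 interferon-stimulated and nucleic acid sensing genes together with the 3 Sp100-family genes Sp100, Sp110 and Sp140, 39 of the 55401 genes in the count files. They were taken as a list of symbols, and all 39 were found in the GENCODE M21 annotation once the version of the gene identifier was removed. All 39 also passed the filter on low counts, which 17468 genes passed in all. Expression was measured by RNA-seq in mouse totipotent potential stem (TPS) cells, which were grown on feeder cells in VCED medium, and in mouse extended pluripotent stem (EPS) cells, which were grown on feeder cells in LCDM medium. According to the study's methods, the medium of TPS cells holds the histone deacetylase inhibitor VPA, a GSK3 inhibitor, the DOT1L inhibitor EPZ004777 and the RARγ agonist CD1530, and the feeders are mouse embryonic fibroblasts inactivated with mitomycin C. There were 3 lines in each group, each sequenced as 2 technical replicates, and whether the TPS lines compared here came from EPS cells or from 2-cell embryos is not given in the sources used here. Where nothing says how the lines arose separately, p-values measure only the spread between these lines.

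Interferon-stimulated genes are the targets of a signalling chain that starts when a cell detects foreign or misplaced nucleic acid. Sensors such as RIG-I (Ddx58) and MDA5 (Ifih1) bind RNA and signal through adaptors to IRF transcription factors, interferons are made and secreted, and their receptors act through JAK kinases on STAT factors, of which STAT2 works with IRF9 at a DNA element called the ISRE. Pluripotent stem cells are known for a weak response to interferon, whereas fibroblasts respond strongly. Sp100, Sp110 and Sp140 are nuclear proteins that read chromatin, Sp100 is a constituent of PML nuclear bodies, and their genes are interferon-stimulated as well.

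Of the 39 genes, 11 were higher in TPS cells than in EPS cells and none was lower, by edgeR's quasi-likelihood test with an adjusted p under 0.05. At an unadjusted p under 0.05, 2 genes were lower, Ddx58 and Stat2, and DESeq2 and limma-voom called 0 lower. The 11 are 28.2% of the list, whereas 14.4% of all tested genes were called higher and 7.34% lower. The genes that were higher were the RNA sensors Ifih1 and Tlr3, the transcription factor Irf7, the effectors Rsad2 and Rtp4, the ubiquitin-like modifier Isg15 and its ligase Herc6, the peptide transporter Tap1 and all 3 Sp100-family genes. Over the list, 30 log2 fold changes were positive and 9 negative, with a median of 0.77 against -0.00376 for all tested genes. Without the Sp100 family, 8 of 36 were higher and the median was 0.68. The lowest TPS line exceeded the highest EPS line for 16 of the 39 genes, and the reverse held for 1, Stat2. Among all tested genes the shares were 23.6% and 19.1%.

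**Figure D1:**
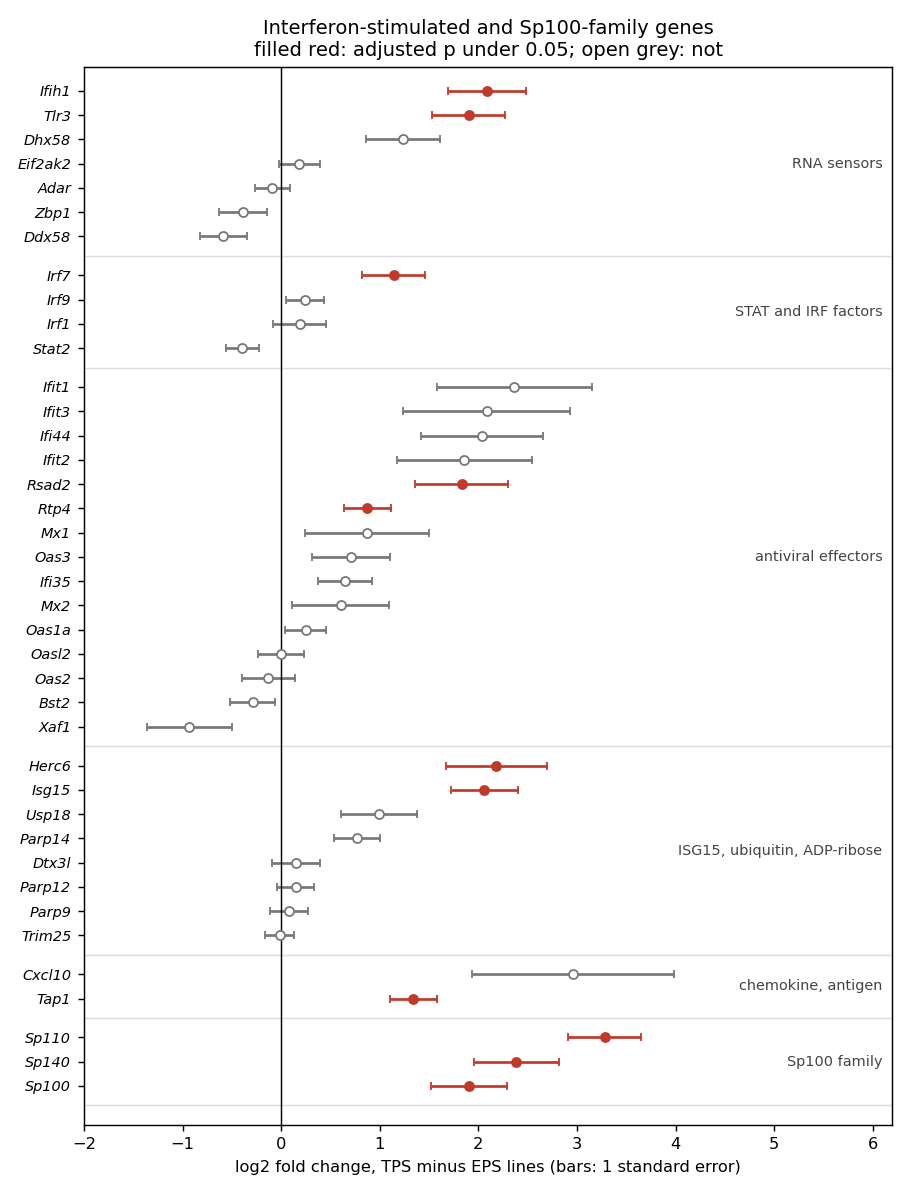
Log2 fold change (TPS minus EPS lines) of each of the 39 genes with 1 standard error, grouped by role, from 3 TPS and 3 EPS lines. The 11 filled points passed an adjusted p under 0.05 and all lie above 0, from 0.87 for Rtp4 to 3.28 for Sp110, while Cxcl10 and the Ifit genes have values of similar size with wider errors and did not pass.

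Levels are in CPM, counts scaled to the size of a line times its TMM factor, with 1 value for each line, the sum of its 2 libraries. The lines held between 29877215 and 38466294 counts. The 2 libraries of EPS line 3 stood apart for this list. Its library 1 was above its library 2 for 36 of the 39 genes, or 92.3%, with a median ratio of 1.35, where 47.3% of all tested genes were, and in the other lines between 17 and 28 of the 39 genes were higher in library 1. With EPS line 3 taken from library 2 alone, 18 of the 39 genes were higher in TPS lines and none was lower, and from library 1 alone 10 were higher and none was lower, both chosen after seeing the data. Among all genes tested, 2481 of 17392 were higher with library 2 alone and 2398 of 17434 with library 1 alone. Zscan4c, a marker of the 2-cell stage, was between 72.7 and 106 CPM in TPS lines and at most 0.0589 CPM in EPS lines, and Pou5f1, a pluripotency factor, was present in all 6 lines at 253 CPM or more. Markers of fibroblasts were also present and also differed. Of 18 fibroblast genes, such as Col1a1 and Pdgfra, 12 were higher in TPS lines and none was lower, with a median log2 fold change of 2.00. Their summed level was 7333, 3999 and 4732 CPM in TPS lines 1, 2 and 3, and 410, 1672 and 1756 CPM in EPS lines 1, 2 and 3. All 18 had counts in all lines except Fap, which was at 0 in EPS line 1. Of 9 genes of macrophages and other blood cells, 2 were higher and none was lower, but all 9 log2 fold changes were positive, with a median of 1.5, and their summed level was 1574, 260 and 465 CPM in TPS lines against 250, 235 and 300 CPM in EPS lines. In bulk RNA, fewer cells of a type and less RNA per cell cannot be told apart, and the part of these cell types in the results below was not tested.

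The promoters were searched for motifs of the ISRE and GAS type. RefSeq promoter windows of build GRCm38.p6, from 250 bases before to 50 bases after a transcript start, were at hand for 30 of the 39 genes, and not for Dhx58, Zbp1, Mx1, Mx2, Oas2, Rtp4, Usp18, Parp9 and Parp14. An ISRE-type motif, GAAA and a second GAAA with any 2 bases between them, searched on both strands with overlapping matches counted, was found in the windows of 12 of these 30 genes, or 40.0%, and in those of 3.99% of 27025 genes in all. The 12 were Ifih1, Ddx58, Isg15, Cxcl10, Oas3, Oas1a, Bst2, Stat2, Rsad2, Eif2ak2, Ifit3 and Ifit1. Of the 10 genes that were higher in TPS cells and had a window, 3 held the motif and of the 20 others 9 did. A GAS-type motif, TTC and GAA with any 3 bases between them, which reads the same on both strands, was found in 7 of the 30 genes and in 9.55% of all genes. The 7 were Adar, Oas1a, Bst2, Irf1, Ifi35, Eif2ak2 and Ifit2, and none of them was called. A match describes the sequence only, and it is not evidence of a bound factor.

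The 250 bases upstream of the start are printed below for 4 interferon-stimulated genes whose levels the results turn on, 5′ to 3′ on the strand of the gene, with the ISRE-type matches in capitals. Isg15 held 3 matches that overlap one another and start at -78, -72 and -66 from the transcript start. Ifit1 held 2 on the opposite strand, at -104 and -85, and Rsad2 and Cxcl10 held 1 each, at -120 on the opposite strand and at -213.
Isg15 (chr4:156200819-156201068, minus strand): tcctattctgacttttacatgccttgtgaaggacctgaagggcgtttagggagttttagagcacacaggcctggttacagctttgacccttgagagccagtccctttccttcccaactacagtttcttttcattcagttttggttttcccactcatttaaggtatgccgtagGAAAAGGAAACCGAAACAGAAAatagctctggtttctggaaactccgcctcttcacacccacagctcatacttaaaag
Rsad2 (chr12:26456453-26456702, minus strand): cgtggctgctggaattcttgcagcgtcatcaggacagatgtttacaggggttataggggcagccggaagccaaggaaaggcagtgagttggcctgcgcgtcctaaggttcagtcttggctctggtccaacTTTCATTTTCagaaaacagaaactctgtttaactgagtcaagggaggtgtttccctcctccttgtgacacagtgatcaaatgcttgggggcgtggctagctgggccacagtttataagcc
Ifit1 (chr19:34640639-34640888, plus strand): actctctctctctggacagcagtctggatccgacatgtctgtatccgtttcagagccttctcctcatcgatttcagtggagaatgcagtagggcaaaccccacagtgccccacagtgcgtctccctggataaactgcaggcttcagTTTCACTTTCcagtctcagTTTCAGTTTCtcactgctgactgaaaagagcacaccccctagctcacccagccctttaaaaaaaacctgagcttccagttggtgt
Cxcl10 (chr5:92348890-92349139, minus strand): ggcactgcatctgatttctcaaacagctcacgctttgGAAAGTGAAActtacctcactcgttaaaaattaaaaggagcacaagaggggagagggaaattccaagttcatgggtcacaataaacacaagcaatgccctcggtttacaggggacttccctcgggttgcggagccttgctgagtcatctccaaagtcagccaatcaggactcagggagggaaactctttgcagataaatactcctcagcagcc

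**Figure D2:**
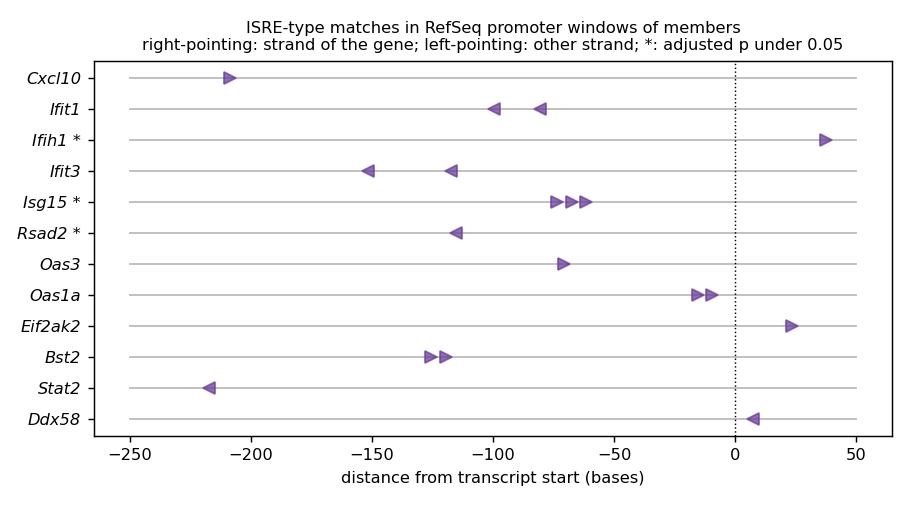
Positions of the ISRE-type matches in the promoter windows of the 12 genes that hold one, in bases from the transcript start, with genes ordered by log2 fold change from Ddx58 at the bottom to Cxcl10 at the top. Matches lie between -222 and 33 bases of the start, and the 3 genes marked with an asterisk were called.

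All 3 Sp100-family genes were higher in TPS cells, and none of them was at high level. Sp110, a nuclear body protein, was at 3.02, 3.06 and 2.73 CPM in TPS lines 1, 2 and 3 and at 0.261, 0.265 and 0.370 CPM in EPS lines 1, 2 and 3. The groups were far apart and the TPS lines close together, which gave 9.84-fold higher means and a log2 fold change of 3.28 ± 0.37 (SE, adjusted p = 0.00242, edgeR). These levels rest on 121, 118 and 86 counts in TPS lines and on 8, 9 and 13 counts in EPS lines. The EPS lines alone did not meet the filter on low counts, so Sp110 could be tested only through its TPS lines. This favours a positive sign in a tested gene, and the p-value does not account for it. Sp140, a chromatin reader best known from immune cells, was at 1.85, 2.90 and 1.97 CPM in TPS lines and at 0.261, 0.50 and 0.512 CPM in EPS lines. Here TPS line 2 was the highest of all, and the log2 fold change was 2.38 ± 0.43 (SE, adjusted p = 0.00969, edgeR). Sp100 was the most abundant of the 3, at 11.3, 5.0 and 9.44 CPM in TPS lines and at 1.70, 2.35 and 2.79 CPM in EPS lines. TPS line 2 was the lowest of its group but above every EPS line, and the log2 fold change was 1.91 ± 0.38 (SE, adjusted p = 0.0139, edgeR). Each of the 3 stayed called when any 1 of the 6 lines was left out, with the largest adjusted p at 0.0478 for Sp100. Per kilobase of exon, the family was still low in TPS cells, at 1.14 CPM for Sp100, 0.673 for Sp140 and 0.433 for Sp110, where Isg15 was at 65.8.

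The family lies together on chromosome 1 (build GRCm38). In GENCODE, Sp110 spans chr1:85576899-85598817 on the minus strand and Sp140 chr1:85600378-85645037 on the plus strand, so that these spans point away from each other with 1560 bases between them. Sp100 follows at chr1:85649988-85709998 on the plus strand, 4950 bases past the end of Sp140. The upstream 250 bases of each are printed because the 3 genes moved together. RefSeq gives 2 starts each for Sp110 and Sp100, and the start nearest that of the GENCODE gene is shown. The other RefSeq start of Sp110, at chr1:85603891, lies inside the span of Sp140. None of the windows of the 3 genes held either motif, which says only that these letters are not in these windows.
Sp110 (chr1:85598811-85599060, minus strand): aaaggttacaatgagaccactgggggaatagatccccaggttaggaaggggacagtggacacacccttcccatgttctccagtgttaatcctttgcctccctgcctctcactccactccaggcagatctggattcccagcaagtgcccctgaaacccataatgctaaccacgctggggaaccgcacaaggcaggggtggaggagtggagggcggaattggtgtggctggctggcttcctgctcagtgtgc
Sp140 (chr1:85600453-85600702, plus strand): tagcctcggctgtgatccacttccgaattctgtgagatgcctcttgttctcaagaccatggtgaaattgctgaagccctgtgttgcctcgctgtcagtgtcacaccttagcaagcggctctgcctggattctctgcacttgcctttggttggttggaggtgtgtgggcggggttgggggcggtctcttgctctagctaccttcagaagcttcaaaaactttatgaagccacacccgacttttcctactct
Sp100 (chr1:85649738-85649987, plus strand): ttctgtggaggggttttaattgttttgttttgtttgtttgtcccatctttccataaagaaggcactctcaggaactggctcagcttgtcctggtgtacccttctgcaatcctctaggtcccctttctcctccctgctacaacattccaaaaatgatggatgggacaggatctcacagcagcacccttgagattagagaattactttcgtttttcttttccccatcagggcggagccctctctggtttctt

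Some of these genes share sequence with others, and the sources used here do not say how reads that fit several genes were counted. The longest transcript of Sp110 was 97.6% identical over its whole length to the pseudogene Gm16026, which had 53, 30 and 12 counts in TPS lines and 0 in every EPS line. That is at least 8.45-fold higher, computed against a floor of 3 counts in the EPS line where these weigh most. With its counts added to those of Sp110, the log2 fold change of the sum was 3.64. A stretch covering 60.4% of the longest Sp140 transcript was 98.6% identical to Arhgef12, a gene on chromosome 9 with between 1699 and 2679 counts per line, so a sum of these 2 genes mostly measures Arhgef12, and its log2 fold change was 0.17 (adjusted p = 0.385, edgeR). The other copies were Oas1g for Oas1a, Ifit3b for Ifit3 and the processed pseudogene AC151275.1 for Isg15, which had at most 6 counts in any line.

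The neighbours of the family were looked at after their values had been seen. Between the start of C130026I21Rik and the end of A630001G21Rik (chr1:84992690-85778643), the annotation lists 31 genes, many of them pseudogenes, of which 23 had a count and 9 were tested. All 9 had a positive log2 fold change, and 7 were called higher, the 3 family genes among them, where 14.4% of all tested genes were. The ends of this interval were set by 2 of the called genes, so the count is a description only. The other 4 were A530040E14Rik, with 20, 25 and 22 counts in TPS lines and 2, 0 and 1 in EPS lines, C130026I21Rik, with 23, 13 and 33 counts against 1, 3 and 0, Gm16026, given above, and A630001G21Rik, with 66, 38 and 40 counts against 18, 11 and 11. C130026I21Rik lost its call without TPS line 3 or EPS line 1, with adjusted p-values up to 0.0638, and A630001G21Rik stayed called only without TPS line 2 or EPS line 1, with adjusted p-values up to 0.105 otherwise (edgeR). Gm6264 and Gm2427 did not pass. C130026I21Rik, A530040E14Rik and Gm16026, with 3 counts or fewer in every EPS line, could pass the filter on low counts only through the TPS lines. A positive sign was therefore fixed for them, and the share of all tested genes is no test of the count. For Sp110, Sp140, Gm6264 and Gm2427 the EPS lines alone did not meet the filter either. Their TPS lines were needed to pass it, so their signs are not free of this selection. C130026I21Rik overlaps Gm16026, so their counts may not be independent.

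Among the sensors, Ifih1, which detects long double-stranded RNA, was at 17.3, 12.4 and 19.9 CPM in TPS lines and at 2.12, 3.68 and 5.86 CPM in EPS lines. The groups did not overlap, and the log2 fold change was 2.09 ± 0.39 (SE, adjusted p = 0.0114, edgeR). Tlr3, the endosomal receptor for double-stranded RNA, was at 4.20, 2.82 and 4.23 CPM in TPS lines and at 0.718, 0.971 and 1.31 CPM in EPS lines. The groups were again apart, with a log2 fold change of 1.90 ± 0.37 (SE, adjusted p = 0.0129, edgeR). The related sensor Ddx58 had the opposite sign, at 66.4, 65.7 and 109 CPM in TPS lines and 102, 113 and 148 CPM in EPS lines. TPS line 3 lay among the EPS lines, and the log2 fold change of -0.59 ± 0.24 did not pass (adjusted p = 0.117, edgeR). Dhx58, the third helicase of this family, was at 7.12, 3.45 and 6.90 CPM against 2.84, 1.88 and 2.68 CPM, groups that did not overlap, and just missed the threshold with a log2 fold change of 1.24 ± 0.37 (adjusted p = 0.0509, edgeR). Eif2ak2 (PKR), Adar and Zbp1, which bind double-stranded or Z-form RNA, had log2 fold changes of 0.19, -0.09 and -0.39 and did not pass.

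Of the 4 transcription factors, Irf7, which drives the amplification of interferon genes, was at 53.1, 25.3 and 63.4 CPM in TPS lines and at 23.5, 18.4 and 22.3 CPM in EPS lines. TPS line 2 lay only just above the highest EPS line, and the log2 fold change was 1.14 ± 0.32 (SE, adjusted p = 0.0404, edgeR). The call on Irf7 was lost when any line other than TPS line 2 was left out, with adjusted p-values up to 0.126, and also with limma-voom (adjusted p = 0.0775). Stat2 and Irf9, partners in the complex that binds the ISRE, had log2 fold changes of -0.39 ± 0.17 and 0.24 ± 0.19 (SE), and Irf1 had 0.19 ± 0.27 (SE). Stat2 was at 62.7, 66.7 and 47.5 CPM in TPS lines and at 83.7, 68.3 and 80.7 CPM in EPS lines, without passing the test (adjusted p = 0.130, edgeR).

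Isg15, the ubiquitin-like protein that is attached to other proteins after interferon, was at 48.0, 41.3 and 59.8 CPM in TPS lines and at 7.80, 9.30 and 18.6 CPM in EPS lines. All TPS lines were well above all EPS lines, which gave 4.18-fold higher means and a log2 fold change of 2.06 ± 0.34 (SE, adjusted p = 0.00757, edgeR). Herc6, the ligase that attaches Isg15 in the mouse, was at 7.87, 4.33 and 5.02 CPM in TPS lines and at 0.522, 1.94 and 1.31 CPM in EPS lines. Its groups did not overlap either, and its log2 fold change was 2.18 ± 0.51 (SE, adjusted p = 0.0225, edgeR), a call that was lost without TPS line 1, TPS line 3 or EPS line 3, with adjusted p-values up to 0.0670. Usp18, which removes Isg15 again and dampens the receptor, was at 27.6, 31.0 and 56.1 CPM against 24.5, 10.4 and 22.9 CPM and did not pass (log2 fold change 0.99 ± 0.39, adjusted p = 0.105, edgeR). Parp14, an ADP-ribosyltransferase, just missed the threshold with 0.77 ± 0.23 (adjusted p = 0.0521, edgeR). Usp18 and Parp14 did pass with DESeq2 (adjusted p = 0.0476 and 0.0278). Parp9, Parp12, Dtx3l and the ubiquitin ligase Trim25 had log2 fold changes between -0.02 and 0.15. Trim25 was nonetheless among the most abundant of the list, at 260, 271 and 309 CPM in TPS lines and 329, 251 and 268 CPM in EPS lines.

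Tap1, which pumps peptides into the endoplasmic reticulum for antigen presentation, was at 24.2, 41.7 and 37.2 CPM in TPS lines and at 14.3, 15.0 and 11.4 CPM in EPS lines. TPS line 1 was the lowest of its group, and the groups did not overlap (log2 fold change 1.34 ± 0.24, adjusted p = 0.00951, edgeR). Rtp4, a receptor transporter with antiviral activity, was at 20.9, 20.004 and 32.2 CPM against 15.5, 12.3 and 12.1 CPM. This was the smallest called change of the list, 0.87 ± 0.24 (SE, adjusted p = 0.0379, edgeR), and it stayed called only without TPS line 2 when lines were left out, with adjusted p-values up to 0.123 otherwise. Rsad2 (viperin), which makes a chain-terminating nucleotide, was at 39.0, 10.1 and 28.1 CPM in TPS lines and at 5.09, 7.51 and 9.11 CPM in EPS lines. TPS line 2 was close to the EPS lines, and the call (log2 fold change 1.83 ± 0.48, adjusted p = 0.0324, edgeR) was lost without any line other than TPS line 2, with adjusted p-values up to 0.0977, and with limma-voom (adjusted p = 0.0850).

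**Figure D3:**
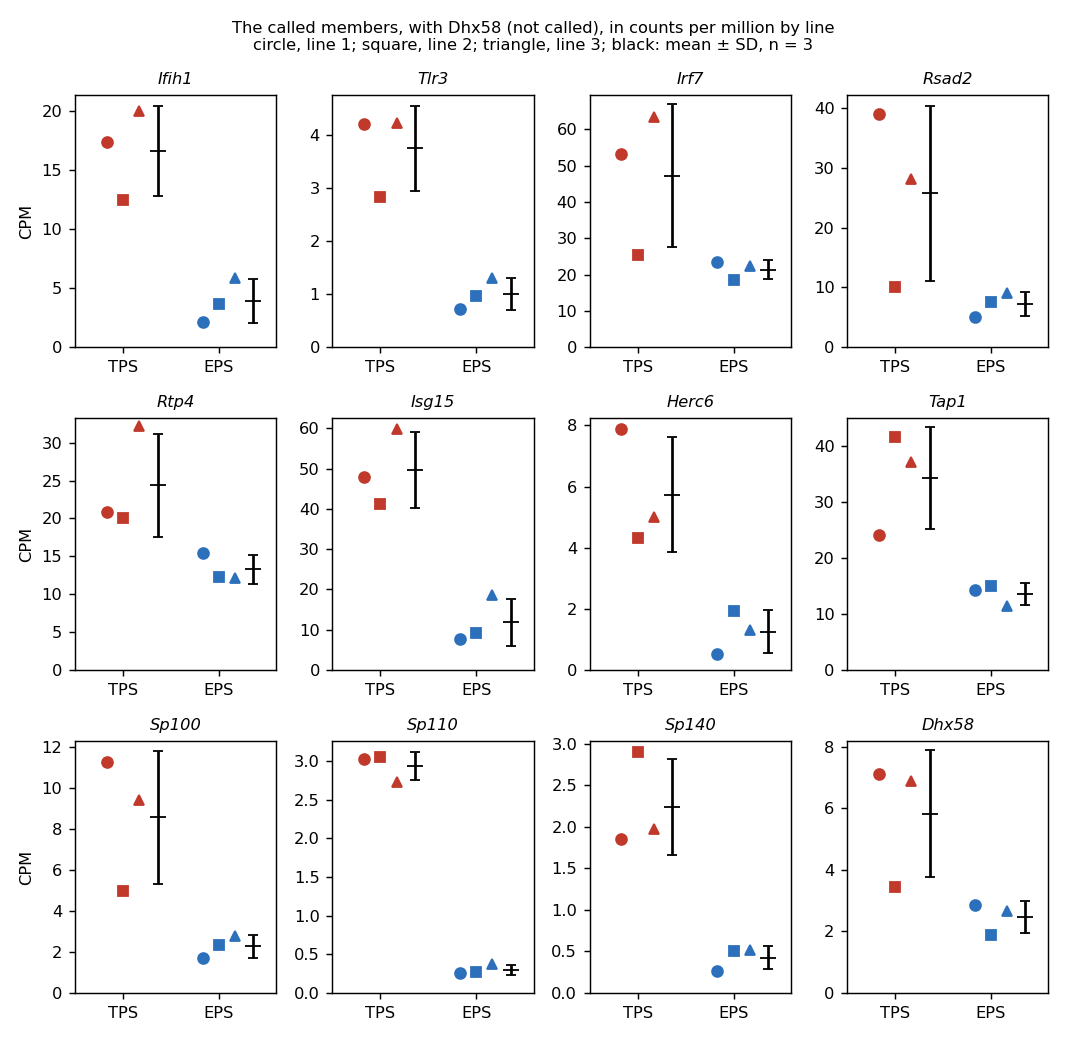
CPM of the 11 called genes and of Dhx58, which just missed the threshold, in TPS lines (red) and EPS lines (blue), with 1 symbol per line and the mean ± SD of 3 lines in black. TPS line 2 (square) sits low for Irf7, Rsad2 and Sp100, and high for Tap1 and Sp140, while the 3 TPS lines of Sp110 lie between 2.73 and 3.06 CPM.

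A further group of genes was high in TPS lines 1 and 3 and much lower in TPS line 2. Ifit1, which binds foreign RNA, was at 92.7, 12.7 and 79.5 CPM in TPS lines and at 5.22, 7.65 and 23 CPM in EPS lines. TPS line 2 lay below EPS line 3, so the groups overlapped, and a log2 fold change of 2.37 ± 0.79 did not pass (adjusted p = 0.0685, edgeR). Cxcl10, a chemokine that attracts T cells, was at 21, 4.38 and 25.8 CPM against 0.490, 0.618 and 5.44 CPM. Its log2 fold change of 2.96 ± 1.02 was the second highest of the list after Sp110 and did not pass either (adjusted p = 0.0759, edgeR). Ifit3 (39.6, 8.16 and 58.6 CPM against 3.17, 3.91 and 18.0 CPM) and Ifit2 (41.2, 7.02 and 25.7 CPM against 3.17, 5.33 and 11.9 CPM) had the same shape, TPS line 2 low and EPS line 3 the highest of the EPS lines. Ifi44 (10.9, 4.85 and 15.6 CPM against 1.08, 1.88 and 4.67 CPM) just missed the threshold (adjusted p = 0.0529, edgeR), with groups that did not overlap. Of the 28 genes that were not called, these 5 and Dhx58 were the 6 with a log2 fold change of 1 or more. Ifi44, Dhx58 and Ifit2 did pass with DESeq2 (adjusted p = 0.00185, 0.00729 and 0.00916). Ifit1, Cxcl10 and Ifit3 did not (adjusted p = 0.0587, 0.0599 and 0.137, DESeq2). Without TPS line 2, Ifit1, Ifit2, Ifi44, Dhx58 and Parp14 passed the test, with adjusted p = 0.0219, 0.0303, 0.0373, 0.0280 and 0.0411 (edgeR). Without EPS line 3, Cxcl10, Ifi44, Ifit3 and Ifit1 passed, with adjusted p = 0.0173, 0.0278, 0.0394 and 0.0433 (edgeR).

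The order of the lines within a group was shared by much of the list. TPS line 2 was below 0.5 of the mean of TPS lines 1 and 3 for 11 of the 39 genes, or 28.2%, where 7.17% of all tested genes were. These were Ifit1, Ifit3, Cxcl10, Ifit2, Mx1, Rsad2, Ifi44, Irf7, Mx2, Sp100 and Dhx58, with ratios from 0.15 for Ifit1 to 0.49 for Dhx58. Sp110, Bst2, Oas1a, Stat2, Tap1, Irf1 and Sp140 had ratios above 1, from 1.04 for Bst2 to 1.52 for Sp140. EPS line 3 was the highest EPS line for 25 of the 39 genes and EPS line 1 the lowest for 22, against 30.7% and 36.5% of all tested genes. EPS line 3 was the highest for 30 genes, or 76.9%, with its library 1 alone, where 32.3% of all tested genes were. With its library 2 alone it was the highest for 20, or 51.3%, against 30.4% of all tested genes. The cause of this order was not tested. In 36 of the 39 genes library 1 of that line was the higher, whereas it was so for 4 of 18 fibroblast genes. The fibroblast genes had a similar order, with TPS line 2 the lowest TPS line for 13 of 18 and below 0.5 of the mean of the others for 10, EPS line 3 the highest EPS line for 14 and EPS line 1 the lowest for all 18.

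**Figure D4:**
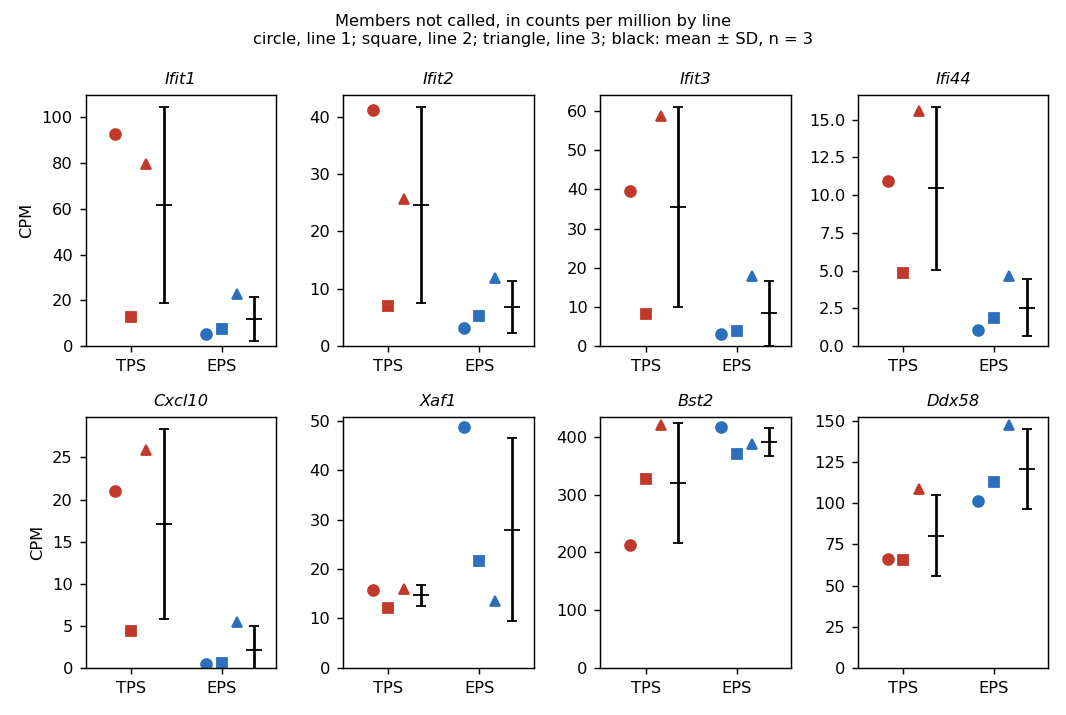
CPM of 8 genes that were not called, in TPS lines (red) and EPS lines (blue), with 1 symbol per line and the mean ± SD of 3 lines in black. For Ifit1, Ifit2, Ifit3, Ifi44 and Cxcl10 the square of TPS line 2 lies near the EPS lines and the triangle of EPS line 3 is the highest of its group, whereas Bst2 and Ddx58 overlap between groups and Xaf1 is high in EPS line 1.

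The remaining effectors did not pass the test. Mx1 and Mx2, dynamin-like GTPases that block viruses, were low, with means of 1.59 ± 1.1 and 3.89 ± 1.6 CPM (SD, n = 3) in TPS lines and 0.866 ± 0.46 and 2.56 ± 1.2 CPM (SD, n = 3) in EPS lines. The oligoadenylate synthetases Oas1a, Oas2 and Oas3 and the related Oasl2 had log2 fold changes between -0.13 for Oas2 and 0.71 for Oas3. Ifi35 was higher in each TPS line than in each EPS line, at 7.30, 7.75 and 11.9 CPM against 5.26, 5.83 and 6.09 CPM, and had an adjusted p of 0.130 (edgeR, log2 fold change 0.65 ± 0.27). Bst2 (tetherin), which holds virus particles at the cell surface, was the most abundant gene of the list per kilobase of exon in both cell types, at 355 CPM per kilobase in TPS cells and 433 in EPS cells. Its level was 213, 328 and 420 CPM in TPS lines and 417, 369 and 388 CPM in EPS lines, a log2 fold change of -0.29 ± 0.23 (SE). Xaf1, a pro-apoptotic protein, had the most negative value, -0.93 ± 0.43 (SE, adjusted p = 0.159, edgeR). EPS line 1 stood apart, at 48.8 CPM beside 21.6 and 13.6 CPM in the other EPS lines and 15.8, 12.2 and 16 CPM in TPS lines.

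The rest of the pathway was taken from lists of 151 further genes, of which 127 were tested, 28 were higher and 12 were lower. The 28 are 22.0% of the genes tested, against 14.4% of all tested genes, and for genes that were lower the share of all tested genes was 7.34%. The counts of each list below stand against the same shares, and many of the calls rest on single lines, as given beside them. The interferons themselves were close to absent. Of 21 ligand genes, only Ifnb1, Ifna13, Ifnk and Ifnz had any count, none had more than 6 counts in a line, that one being Ifnz in TPS line 2, and none passed the filter on low counts. With 3 counts standing for between 0.0750 and 0.0979 CPM in these lines, lower expression was not detectable at this depth.

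Of 15 receptor, JAK, STAT and SOCS genes, 4 were higher and 3 lower. Both chains of the interferon gamma receptor were higher, Ifngr1 at 26.7, 16.9 and 18.1 CPM against 4.28, 6.65 and 6.46 CPM (log2 fold change 1.83 ± 0.28, adjusted p = 0.00613, edgeR) and Ifngr2 with a log2 fold change of 1.30 ± 0.31 (adjusted p = 0.0241, edgeR). The chains of the type I receptor had smaller values, with 0.33 ± 0.21 for Ifnar1 and 0.70 ± 0.23 for Ifnar2, and neither passed in edgeR with TMM factors. Ifnar2 did pass with DESeq2 (adjusted p = 0.0308) and with scaling by library size alone (adjusted p = 0.0334, edgeR). Of the kinases, Jak2 (1.06) and Jak1 (0.49) were higher, and Tyk2, at -0.38, did not pass. The call on Jak1 was lost whichever line was left out, with adjusted p-values from 0.0615 to 0.153 (edgeR), and also with DESeq2 (adjusted p = 0.0666) and limma-voom (adjusted p = 0.0534). Jak2 stayed called only without TPS line 3 or EPS line 3, and Ifngr2 only without TPS line 2 or EPS line 3, with adjusted p-values up to 0.0578 and 0.0761 otherwise (edgeR). With the line number as a replicate block, Jak1 and Ifngr2 did not pass either (adjusted p = 0.0693 and 0.0563, edgeR). The genes that were lower belong to the LIF and interleukin-6 branch, namely Lifr (-0.80), Stat3 (-0.64) and Socs3 (-1.42), while their shared receptor Il6st had -0.08 and did not pass. Lifr stayed called whichever line was left out, as Ifngr1 did, Stat3 lost its call without TPS line 3 (adjusted p = 0.0600, edgeR), and Socs3 stayed called only without TPS line 2 or EPS line 3, with adjusted p-values up to 0.0892 otherwise (edgeR).

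Of 17 tested sensing adaptors, kinases and related genes, 1 was higher and 4 were lower. Mavs, the mitochondrial adaptor through which Ifih1 and Ddx58 signal, was lower at 22.4, 25.7 and 25.0 CPM in TPS lines against 34.0, 43.8 and 38.6 CPM in EPS lines (log2 fold change -0.67 ± 0.16, adjusted p = 0.0232, edgeR). Rnaseh2a (-0.88) and Rnaseh2b (-0.56), subunits of the nuclease that removes RNA from DNA, and the DNA sensor Aim2 (-0.91) were lower as well. These calls rest on few lines. Mavs stayed called only without EPS line 1, Rnaseh2b only without TPS line 1 or EPS line 3, and Aim2 only without TPS line 3 or EPS line 3, with adjusted p-values up to 0.0730, 0.104 and 0.0898 otherwise (edgeR), and Rnaseh2a lost its call without TPS line 1 or TPS line 3, with adjusted p-values up to 0.0597 (edgeR). With scaling by library size alone, Mavs, Rnaseh2b and Aim2 did not pass either (adjusted p = 0.0630, 0.0732 and 0.0539, edgeR). Nor did Rnaseh2b and Aim2 with the line number as a replicate block (adjusted p = 0.0542 and 0.0516, edgeR). Ikbke, a kinase that activates IRFs, was the member of this list that was higher (1.69 ± 0.45, adjusted p = 0.0348, edgeR), a call that stayed only without TPS line 2 or EPS line 3, with adjusted p-values up to 0.0988 otherwise. Tmem173 (STING), Irf3, Tbk1, Samhd1 and Rnaseh2c had log2 fold changes between -0.23 and 0.07, and Cgas had 1.08 ± 0.46, none of which passed. Of 7 further IRF and IRF-binding genes tested, Irf5 (2.47) and Irf2 (1.86) were higher, and Irf2bp1 and Irf2bp2 had -0.01 and 0.21 without passing. Irf5 stayed called whichever line was left out, and Irf2 only without EPS line 1, with adjusted p-values up to 0.0930 otherwise (edgeR).

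Of 53 tested genes among other interferon-stimulated genes, 13 were higher and 3 lower, with a median log2 fold change of 0.68. Lgals9, a galectin, was at 74.4, 57.3 and 80.8 CPM against 19.8, 19.4 and 27.8 CPM (log2 fold change 1.66 ± 0.21, adjusted p = 0.00325, edgeR), and Helz2, a nuclear helicase, at 40.9, 39.9 and 60.2 CPM against 9.63, 11.3 and 15.1 CPM (1.97 ± 0.25, adjusted p = 0.00334, edgeR). In both, every TPS line was above every EPS line, and both stayed called whichever line was left out. The GTPase Gbp2 (2.47) and the tudor protein Tdrd7 (1.43) were also higher. Those that were lower were Ifitm1 (-1.52), Oasl1 (-1.53) and the cytidine deaminase Apobec3 (-1.20). Of these 5, Oasl1 lost its call without TPS line 1, TPS line 2 or EPS line 1, with adjusted p-values up to 0.0728 (edgeR), and the other 4 kept theirs whichever line was left out. The 9 other genes that were higher each lost the call without at least 1 line. Trafd1 and Gbp7 lost it only without TPS line 3, and Gbp3 was called in 3 of 6 such fits, Uba7 in 2, and Trim30a, Cmpk2, Slfn2, Znfx1 and Isg20 in 1, with adjusted p-values up to 0.142 for Slfn2 (edgeR). Ifitm3 (-0.23) and Lgals3bp (1.54, adjusted p = 0.0659) did not pass in edgeR, although Lgals3bp was among the most abundant of this list. Lgals3bp did pass with DESeq2 (adjusted p = 0.00679) and without TPS line 2 (adjusted p = 0.0348, edgeR).

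Of 17 antigen presentation genes, 4 were higher and none lower. These were the immunoproteasome subunits Psmb8 (2.18) and Psmb9 (1.55), Tap2 (1.92), the partner of Tap1, and the class I gene H2-K1 (0.78). Psmb8 and Tap2 stayed called whichever line was left out, whereas H2-K1 did so only without TPS line 2 and Psmb9 only without TPS line 1, with adjusted p-values up to 0.116 and 0.120 otherwise (edgeR), and Psmb9 did not pass with limma-voom (adjusted p = 0.0787). B2m, the light chain of class I, was at 507, 166 and 366 CPM in TPS lines and 105, 170 and 196 CPM in EPS lines, with TPS line 2 again among the EPS lines (log2 fold change 1.14 ± 0.40, adjusted p = 0.0786, edgeR). H2-D1 (0.90, adjusted p = 0.0506) and Calr (0.10) did not pass in edgeR with TMM factors. H2-D1 did pass with DESeq2 (adjusted p = 0.0191). In edgeR it also passed with library size alone (adjusted p = 0.0333) and without TPS line 2 (adjusted p = 0.0114). Psmb9 overlaps Tap1 on the opposite strand, and whether counting used strand is not given in the sources used here.

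Of 8 genes for partners of Sp100 in PML nuclear bodies, 1 was higher, or 12.5%, a share no larger than the 14.4% of all tested genes. Pml, the protein that builds these bodies, was at 182, 163 and 241 CPM in TPS lines and 128, 178 and 178 CPM in EPS lines (log2 fold change 0.27 ± 0.20, adjusted p = 0.361, edgeR). The gene that was higher was the kinase Hipk2 (0.75 ± 0.21, adjusted p = 0.0438, edgeR), which stayed called only without EPS line 2, with adjusted p-values up to 0.121 otherwise, and the abundant Trim28 and Atrx had values of -0.08 and -0.69 without passing. Targets of NF-kB, the other pathway switched on by nucleic acid sensing, were mixed. Of 12 genes, Tnfaip3 (1.48), Il6 (2.7) and Vcam1 (2.11) were higher, Relb (-1.33) and Nfkb2 (-0.79) were lower, and Ccl2 had 2.36 ± 0.79 without passing, at 301, 41.1 and 262 CPM in TPS lines against 16.3, 26.3 and 75 CPM in EPS lines. Nfkbia (0.13) and Icam1 (0.08) did not pass. Of the 5 calls, that on Relb alone stayed whichever line was left out. Tnfaip3 lost its call without TPS line 1, TPS line 3, EPS line 1 or EPS line 3, Vcam1 without TPS line 1, TPS line 3, EPS line 1 or EPS line 2, Il6 without any line other than TPS line 2, and Nfkb2 without any line other than EPS line 3, with adjusted p-values up to 0.0607, 0.116, 0.0741 and 0.137 (edgeR). Vcam1, Il6 and Nfkb2 did not pass with limma-voom (adjusted p = 0.0567, 0.0684 and 0.0590), nor did Nfkb2 with scaling by library size alone (adjusted p = 0.0773, edgeR).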

How the data were processed

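Paired-end libraries of RNA captured on oligo(dT) beads were sequenced from 3 TPS and 3 EPS lines with 2 technical replicates each. Per the submitters' processing notes, the authors used fastp 0.19.7 and STAR 2.7.3a with build mm10, and they deposited raw counts per gene, without normalization. The counter, the use of strand and the handling of multi-mapping reads are not given in the sources used here. Total counts per library were between 13676051 and 21821707, which limits genes of a few counts, and intervals and floors cover counting error only. Technical replicates differed by more than sampling noise (chi-square per degree of freedom from 2.68 to 24.3) and were summed per line, so the line was the replicate.

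Groups came from the labels. TPS and EPS lines were compared by edgeR 4.0.16 (R 4.3.3) with TMM factors, filterByExpr and the quasi-likelihood test over 17468 genes, with Benjamini-Hochberg adjusted p under 0.05. The standard error is the log2 fold change divided by the square root of F. Identifiers were matched to GENCODE M21, 55141 of 55401 without the version. Near-identical copies came from blastn 2.17.0 (at least 95% identity over at least 50% of the longest transcript). Alternatives were DESeq2 1.42.0, limma-voom 3.58.1, other factors, filters and thresholds, single libraries, EPS line 3 from either library (added after seeing the data), the line number as a block, summed copies, a longer motif and leaving out each line.

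The list, the pathway lists and the tests were chosen with earlier results of these data known. Every called gene of the list is named with values, and of each pathway list up to 5 called genes of smallest p and up to 3 more of highest level, with Ifnar1, Ifnar2, Jak1, Tyk2, Irf3, Mavs, Tmem173, Cgas and Pml always named. Oasl1 and the neighbours of Sp100 were added after their values were seen. Some genes that this rule names are not reported here.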

Additional observations from a re-analysis of the deposited data

How the results depend on the processing

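Of the 39 genes, 11 were higher and none lower. The number higher was 16 with DESeq2, 9 with limma-voom, 19 without a filter on low counts, 21 with the 12 libraries as separate samples, 9 with technical replicate 1 alone, where Irf7 and Rtp4 were lost, 17 with technical replicate 2 alone, 18 with EPS line 3 from its library 2 alone, an alternative chosen after seeing the data, and 4 at an adjusted p under 0.01, and it ranged from 7 to 16 when each line was left out, the 7 coming without TPS line 1 or TPS line 3 and the 16 without TPS line 2. Of all genes tested, those higher were 3445 of 21582 with DESeq2, 2429 of 17468 with limma-voom and 3290 of 32608 without a filter. They were 4067 of 15512 with 12 libraries, 2000 of 15596 with technical replicate 1 alone and 2074 of 16108 with replicate 2 alone. They were 2481 of 17392 with library 2 of EPS line 3, and 873 of 17468 at an adjusted p under 0.01. Without TPS line 1, 2 or 3 they were 1719 of 17784, 2234 of 17891 and 1617 of 18003. Of the 39 genes, the number lower was 3 with 12 libraries and 1 with the line number as a replicate block, and 0 to 1 with a line left out, the 1 being Ddx58 without TPS line 3. The 7 genes called with every line left out in turn were Ifih1, Tlr3, Isg15, Tap1, Sp100, Sp110 and Sp140, and the median log2 fold change of the list stayed between 0.61 and 0.92 in all alternatives. Sp140 was not called when summed with Arhgef12, which leaves 2 of the 3 Sp100-family genes. Depth limits genes of a few counts, such as Sp110 in EPS lines, and a gene that missed the threshold is not shown to be equal.

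Over all genes, 2509 were higher and 1282 lower. The alternatives that moved these counts by more than 1.5 times were the 12 libraries (4067 and 3610), an adjusted p under 0.01 (873 and 258), library size alone (745 lower), the replicate block (721 lower), at least a doubling or halving (543 lower) and leaving out a line (1617 to 2234 higher and 493 to 1047 lower). With library size alone, 80.0% of calls were higher in place of 66.2%, and the median of all genes moved to 0.144, beside which the median of the 39 genes was 0.76 higher. For the further pathway lists, 28 were higher and 12 lower. These became 56 and 21 with 12 libraries, 7 and 2 at an adjusted p under 0.01, 16 higher with the replicate block, 5 lower with at least a doubling or halving, and 10 to 33 higher and 6 to 12 lower with a line left out. The ISRE-type motif with a C added at its end was found in 10 of 30 genes in place of 12, and in 0.944% of all genes in place of 3.99%.

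The labels do not say whether TPS and EPS lines of 1 number share an origin, and the deviations gave no sign that they pair. The deviations of TPS and EPS lines that share a number had correlations of 0.024, -0.116 and 0.0423, and with the number as a block 10 of the 39 genes were higher, 8 of them among the 11. Of all genes tested, 1714 of 17468 were higher with the block. Under the block Herc6, Rsad2 and Rtp4 were not called, Cxcl10 and Ifi44 were, and Ddx58 was lower (adjusted p = 0.0441), while near the Sp100 family C130026I21Rik and A630001G21Rik did not pass (adjusted p = 0.0649 and 0.0585). The cause of these shifts was not tested. Genes near 0 changed sign in places, none of them called. Oasl2 took values of 0.0507 with upper quartile factors, 0.138 with library size alone, 0.0247 with at least 1 CPM in 3 lines 0.175 with technical replicate 2 alone and 0.176 with EPS line 3 from its library 2 alone, Trim25 took 0.038, 0.136, 0.0125, 0.039 and 0.0462 in the same order, and with library size alone Adar took 0.0514 and Oas2 0.0247. With each line left out in turn, values ranged from -0.234 to 0.0491 for Adar, -0.011 to 0.452 for Irf1, -0.433 to 0.0234 for Oas2, -0.266 to 0.111 for Oasl2, -0.114 to 0.0817 for Trim25, -0.0843 to 0.349 for Dtx3l, -0.0943 to 0.207 for Parp9 and -0.0383 to 0.297 for Parp12.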
